A study of Mus musculus with 6 samples.

Results

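The mitosis and spindle genes are 36 genes that act in G2 and M phase, taken by symbol from the per-library count and FPKM files, which list 23420 genes. All 36 symbols were found, and all 36 passed the filter on low counts that left 12653 genes for testing. They were measured by RNA sequencing of LSK cells from the bone marrow of 3 bcat(ex3)osb mice and 3 wild-type (WT) littermates, with 1 library per mouse. LSK stands for cells without lineage markers that carry Sca-1 and Kit, a gate that encloses the blood stem cells and the multipotent progenitors derived from them. The bcat(ex3)osb mice carry β-catenin signalling that is always on in their osteoblasts, which build bone, so the altered cell is not the cell that was sequenced. Neither the promoter that directs the allele to osteoblasts nor the age or any treatment of the mice is stated in the labels, which name no allele that both groups carry. The comparison asks what an altered niche does to the transcripts of the stem and progenitor cells living in it.

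Cells enter mitosis when the kinase Cdk1 is activated by B-type cyclins, and Aurora and Polo-like kinases then build the spindle. Kinetochores attach chromosomes to microtubules, the spindle checkpoint holds the anaphase-promoting complex (APC/C) until attachment is complete, and the central spindle directs cytokinesis. Most of these genes are transcribed in a wave late in the cycle. In resting cells the DREAM complex represses them, and in cycling cells B-Myb and FoxM1 with the MuvB core activate them, largely through a promoter sequence called the cell cycle genes homology region (CHR) and through CCAAT boxes bound by NF-Y. In the marrow, long-term stem cells divide rarely and multipotent progenitors often, so in a sorted LSK population these transcripts report on the dividing part of the fraction. A bulk library cannot tell fewer dividing cells from less RNA per dividing cell.

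Promoter sequence showed what most of the 36 genes share. RefSeq promoters (build GRCm38.p6, of which mm10 is another name), each from 250 bases before to 50 bases after an annotated start site, were found for 32 of them; Ccna2, Tpx2, Aurkb and Kif20a had no entry. A CHR match, TTTGAA or TTCGAA on either strand of any window of the gene, was present in 26 of these 32 genes (81.2%), against 21.7% of the 27025 genes in the promoter table and 16.3% of the tested genes with a promoter. CCAAT on either strand was present in 25 (78.1%), against 41.1% of all genes and 43.0% of tested genes. Both were present in 23 (71.9%), against 8.61% of all genes and 6.88% of tested genes. A CHR match and a CCAAT box can share no more than an end letter, and a match is a description of the sequence, not a binding site.

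For positions, the first window of a gene that held both elements was used. Without such a window, the first with a CHR match was taken, or else the first window. This choice favours windows with matches. Of 35 CHR matches in these windows, 24 began within 60 bases of the start site, with a median position of 3. Of 60 CCAAT boxes, 58 lay upstream, with a median position of -69.5. The windows themselves lie mostly upstream, and positions were not computed over all genes, so these counts have no background. At least 2 CCAAT boxes were present in 17 genes. The genes lacking both were Birc5, Nuf2, Nusap1 and Tacc3. Ccnb1 and Cenpe held CCAAT without a CHR match, and Ndc80, Kif2c and Anln held a CHR match without CCAAT. The stretches printed here run from 110 bases before to 30 bases after the start site, 5′ to 3′, with CHR matches and CCAAT boxes in capitals. A match that lies on the other strand is printed as its reverse complement. Ccnb2, Cdk1, Ttk, Cdc20 and Top2a are shown for the arrangement of both elements, and Nuf2, the member with the smallest unadjusted p, for their absence.
Ccnb2: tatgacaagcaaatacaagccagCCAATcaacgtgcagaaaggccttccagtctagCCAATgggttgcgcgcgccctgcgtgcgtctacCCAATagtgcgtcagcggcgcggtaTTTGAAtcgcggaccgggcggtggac
Cdk1: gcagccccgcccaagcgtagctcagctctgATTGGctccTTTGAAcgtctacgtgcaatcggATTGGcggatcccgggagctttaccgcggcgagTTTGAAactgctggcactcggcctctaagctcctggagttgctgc
Ttk: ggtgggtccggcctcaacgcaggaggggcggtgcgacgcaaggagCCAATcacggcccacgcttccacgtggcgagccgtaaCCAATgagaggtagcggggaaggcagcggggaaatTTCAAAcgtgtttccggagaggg
Cdc20: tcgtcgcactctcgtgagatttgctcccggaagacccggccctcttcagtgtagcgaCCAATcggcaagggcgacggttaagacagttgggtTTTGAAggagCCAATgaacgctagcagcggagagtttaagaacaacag
Top2a: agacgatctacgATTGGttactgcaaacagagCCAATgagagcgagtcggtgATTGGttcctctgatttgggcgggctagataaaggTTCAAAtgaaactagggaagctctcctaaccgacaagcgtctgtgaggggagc
Nuf2: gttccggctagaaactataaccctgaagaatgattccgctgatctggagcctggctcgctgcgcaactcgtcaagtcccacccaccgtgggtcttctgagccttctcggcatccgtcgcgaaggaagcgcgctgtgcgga
The Ccnb2 stretch is chr9:70421525-70421664 on the minus strand. The Cdk1 stretch is chr10:69352883-69353022 on the minus strand. The Ttk stretch is chr9:83834579-83834718 on the plus strand. The Cdc20 stretch is chr4:118437314-118437453 on the minus strand. The Top2a stretch is chr11:99024160-99024299 on the minus strand. The Nuf2 stretch is chr1:169531435-169531574 on the minus strand.

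**Figure D1:**
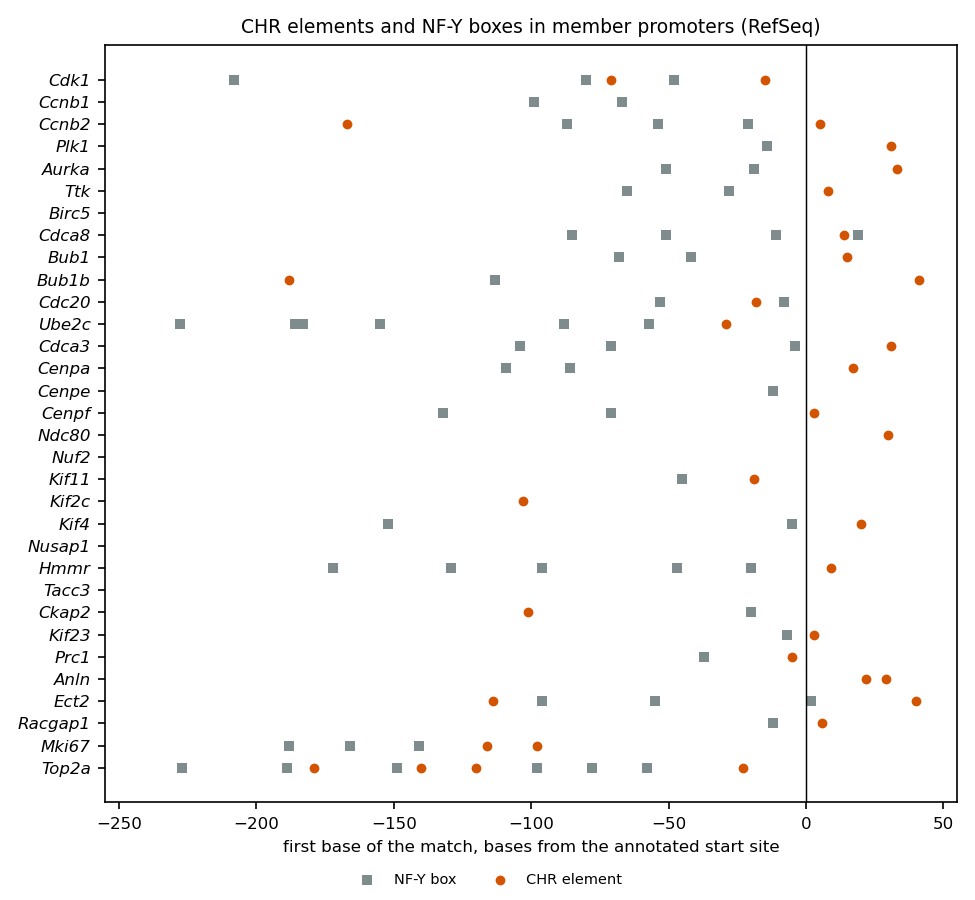
Position of CHR elements (circles) and NF-Y boxes (squares) in the RefSeq promoters of 32 mitosis and spindle genes. The horizontal axis is the first base of each match in bases from the annotated start site, and each row is the chosen window of a gene. Most CHR elements are near the start site and most NF-Y boxes upstream of it, in windows that lie mostly upstream. There are 4 genes with neither.

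Total counts were between 15431235 and 19956774 per library, and the first principal component set bcat(ex3)osb mouse 2 apart from the other 5 libraries. All 13 LSK markers passed the filter, with summed levels of 3701 to 4622 CPM in bcat(ex3)osb and 3595 to 5596 CPM in WT mice (CPM, counts scaled to library size with TMM factors). Of the 13, 10 were negative, with a median log2 fold change of -0.35. Ly6a, which encodes Sca-1, and Procr lay below WT without overlap (2 of 13, against 7.67% of all genes). DESeq2 called Ly6a lower (1 of 13, against 0.537% of all genes), and edgeR called 0 of 13. Ctnnb1, which encodes β-catenin, was at 323, 264 and 321 CPM in bcat(ex3)osb mice and 473, 263 and 416 CPM in WT mice 1, 2 and 3; the allele acts in osteoblasts, so its level in LSK cells checks no label. Haemoglobin genes Hba-a1 and Hba-a2, from a list of 14 erythroid markers, were at 0 in all 6 libraries. How reads shared between similar genes were counted is not given, so this does not show that haemoglobin RNA was absent. The 12 markers of that list found by symbol summed to 602, 1403 and 1082 CPM in bcat(ex3)osb mice 1, 2 and 3. In WT mice 1, 2 and 3 they summed to 1258, 1145 and 864 CPM. Of the 7 erythroid markers that passed the filter, 3 were positive and 4 negative. The 13 B cell markers summed to 668, 101 and 82.3 CPM in bcat(ex3)osb mice 1, 2 and 3 and to 686 to 1185 CPM in WT mice, with 0 of 13 positive. The 14 granulocyte-monocyte markers summed to 6919 to 11959 CPM in bcat(ex3)osb and 1728 to 3702 CPM in WT mice, with 13 of 14 positive. Of these 14, 12 lay above WT without overlap, against 6.89% of all genes. DESeq2 called 10 of the 14 higher, against 0.798% of all genes, and edgeR called 0. No B cell or granulocyte-monocyte marker was at 0 in all mice of a group, and the part of these cells in the mitotic values was not tested.

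No mitosis or spindle gene passed the test of a difference between bcat(ex3)osb and WT mice, given the spread between mice. By edgeR's quasi-likelihood test with Benjamini-Hochberg adjustment over 12653 genes, 0 of 36 were higher and 0 lower at the threshold of 0.05, where the share called among all genes was also 0%. At an unadjusted p under 0.05 the count was 0 of 36 in either direction, against 6.56% of all genes, 3.43% higher and 3.13% lower. DESeq2 called 0 of 36, against 0.798% of all genes called higher and 0.537% called lower, and limma-voom called 0 of 36 against 0%. The smallest unadjusted p among the 36 was 0.117, with an adjusted p of 0.829 by edgeR. The log2 fold change, bcat(ex3)osb over WT, was negative for 27 genes and positive for 9, where 49.7% of all genes were negative and 50.3% positive. It ran between -0.48 for Top2a and 0.27 for Cdk1, with a median of -0.10, against 0.0022 over all genes.

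The precision bounds what this comparison could have shown. The 95% intervals of the 36 log2 fold changes had half-widths between 0.42 and 0.91, with a median of 0.64, and all 36 included 0. For 24 genes the interval lay within a 2-fold change in both directions, so for these a doubling or halving between the groups is outside the interval. These intervals are from the fit with genotype as the only term. By Xist and Y-linked counts sex differed between the groups, so the intervals do not bound an effect of genotype apart from sex. The 12 others, among them Top2a, Mki67, Cenpf, Ube2c and Cdk1, had intervals that reached past 2-fold in a single direction. Counting error was small beside this, since the lowest count of any of the 36 in any library was 553. The between-group difference in mean log2 CPM was smaller than the pooled within-group SD for 31 of 36 genes (86.1%), against 67.2% of all genes tested.

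**Figure D2:**
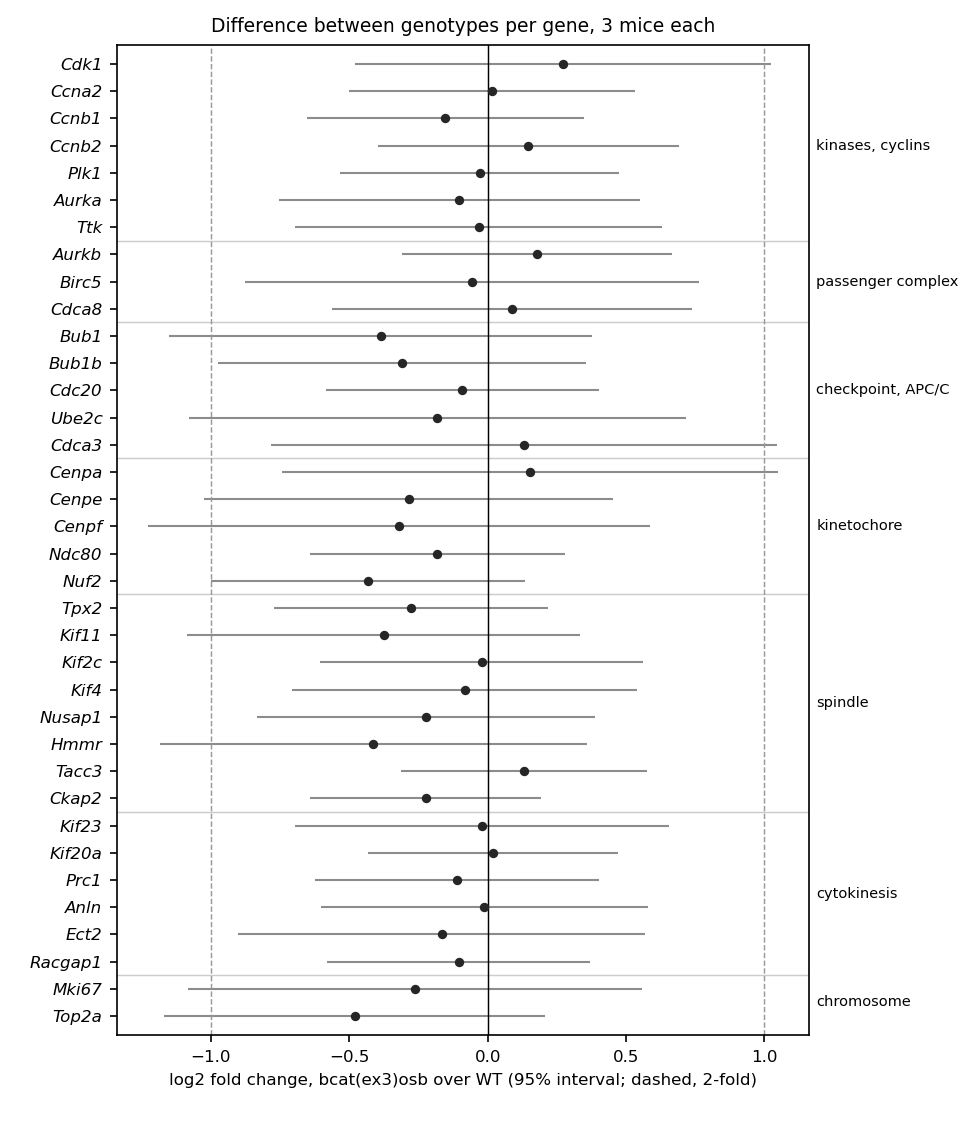
Log2 fold change of each mitosis and spindle gene, bcat(ex3)osb over WT, with its 95% interval from edgeR (3 mice per group), ordered by role. Every interval crosses 0 (solid line), and 24 of 36 lie inside the 2-fold lines (dashed).

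The mice of a genotype differed among themselves. Relative to the WT mean of each gene, the median over the 36 genes was 0.20, -0.17 and -0.37 log2 units in bcat(ex3)osb mice 1, 2 and 3. The same median was -0.17 in WT mouse 1, 0.14 in WT mouse 2 and 0.052 in WT mouse 3. Summed over the 36 genes, the level was 7496, 5988 and 5007 CPM in bcat(ex3)osb mice 1, 2 and 3, against 5616, 7607 and 6815 CPM in WT mice 1, 2 and 3. The lowest sum was that of bcat(ex3)osb mouse 3 and the highest that of WT mouse 2, and bcat(ex3)osb mice 1 and 2 lay inside the WT range. The SD of log2 CPM within a group had a median of 0.44 in bcat(ex3)osb and 0.26 in WT mice over the 36 genes, and of 0.38 in bcat(ex3)osb and 0.32 in WT mice over all genes. bcat(ex3)osb mouse 1 was the highest of its group for 25 genes and the lowest for 0, and WT mouse 1 the lowest of its group for 25 and the highest for 2. Without bcat(ex3)osb mouse 1 the median log2 fold change of the 36 genes was -0.32, and without bcat(ex3)osb mouse 3 it was 0.011. It was -0.18 without WT mouse 1 and -0.059 without WT mouse 2.

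By Xist and Y-linked counts, bcat(ex3)osb mice 1 and 2 were male and the other 4 mice female. Sex is not in the labels. Fitted with sex as a second term, the 36 genes were all negative, with a median of -0.38, and in the 4 female libraries alone the median was -0.39. In both settings the genotype difference rests on bcat(ex3)osb mouse 3 alone, and 0 of 36 genes passed. In that mouse 20 of the 36 genes lay below all 3 WT mice, against 23.1% of all genes. Sex and genotype cannot be fully told apart here.

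**Figure D3:**
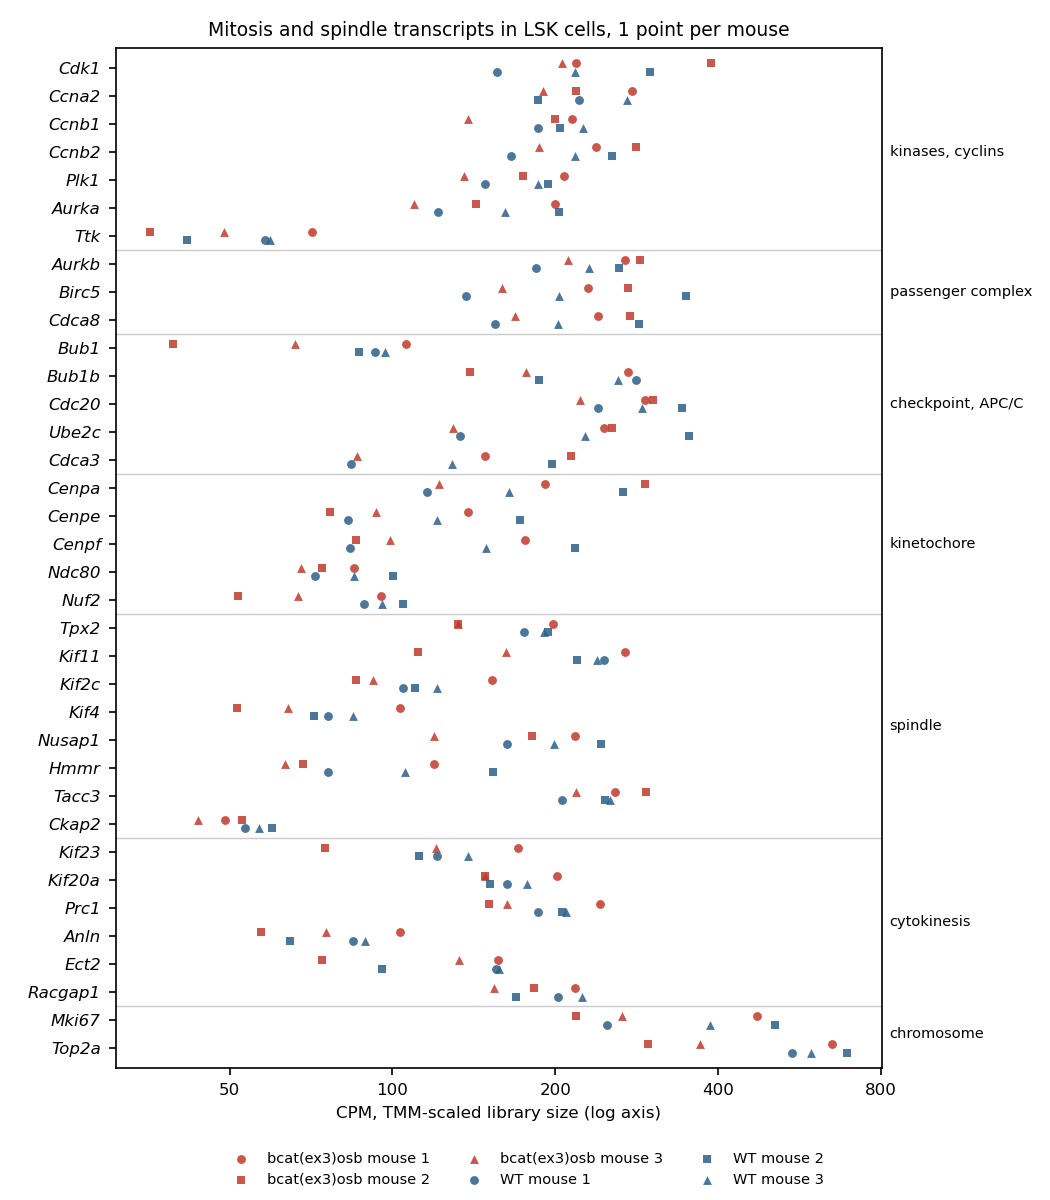
CPM of each mitosis and spindle gene in each library on a log axis, 1 point per mouse, with bcat(ex3)osb mice in red above WT mice in blue for every gene. Ckap2 is the 1 gene whose groups do not overlap.

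The kinases and cyclins that drive mitotic entry had a median log2 fold change of -0.029 over 7 genes. Cdk1, the mitotic cyclin-dependent kinase (chromosome 10, 69335146 to 69352912 in RefSeq on GRCm38.p6, as for the other gene positions), was at 218, 388 and 206 CPM in bcat(ex3)osb mice 1, 2 and 3, against 156, 299 and 217 CPM in WT mice 1, 2 and 3. bcat(ex3)osb mouse 2 and WT mouse 2 were the high libraries, and the groups overlapped, with a log2 fold change of 0.27 ± 0.33 (SE; unadjusted p = 0.430, edgeR adjusted p = 0.915). Ccnb1, the main cyclin of mitotic entry (chromosome 13, 100778739 to 100786486), was at 215, 199.9 and 138 CPM in bcat(ex3)osb mice and 186, 204 and 225 CPM in WT mice 1, 2 and 3. Its log2 fold change was -0.15 ± 0.22 (unadjusted p = 0.5002, edgeR adjusted p = 0.929). Ccnb2, a second B-type cyclin, and Ccna2, the cyclin of S and G2 phase, had log2 fold changes of 0.15 ± 0.24 and 0.014 ± 0.22.

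Plk1, the Polo-like kinase of spindle assembly and mitotic exit (chromosome 7, 122159435 to 122169884), was at 207, 174 and 136 CPM in bcat(ex3)osb mice and 148, 194 and 186 CPM in WT mice 1, 2 and 3. WT mice lay inside the range of the bcat(ex3)osb mice, with a log2 fold change of -0.029 ± 0.22 (unadjusted p = 0.899, edgeR adjusted p = 0.988). Aurka, the kinase of centrosome maturation, averaged 151 ± 45.9 CPM in bcat(ex3)osb and 162 ± 40.9 CPM in WT animals (SD, n = 3 each). Ttk, the Mps1 kinase that starts checkpoint signalling, averaged 51.8 ± 17.9 CPM in bcat(ex3)osb and 53.0 ± 9.82 CPM in WT animals.

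The chromosomal passenger complex, which corrects faulty attachments and later guides the cleavage furrow, was represented by Aurkb, its kinase, and by Birc5 and Cdca8, which anchor it. Aurkb (chromosome 11, 69045624 to 69051664) was at 269, 286 and 211 CPM in bcat(ex3)osb mice and 184, 262 and 231 CPM in WT mice 1, 2 and 3. bcat(ex3)osb mice 1 and 2 lay above all WT mice and mouse 3 between them, with a log2 fold change of 0.18 ± 0.21 (unadjusted p = 0.423, edgeR adjusted p = 0.915). Birc5, also called survivin, was at 229.9, 272 and 159.7 CPM in bcat(ex3)osb mice and 137, 349 and 203 CPM in WT mice 1, 2 and 3. WT mice 1 and 2 thus held both its extremes, which differed by 2.55-fold. Cdca8, the borealin subunit, averaged 228 ± 54.3 CPM in bcat(ex3)osb and 214 ± 66.6 CPM in WT animals (SD, n = 3 each).

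Genes of the spindle checkpoint and the APC/C had a median log2 fold change of -0.18 over 5 genes. Bub1b, the checkpoint protein BubR1 (chromosome 2, 118598202 to 118641592), was at 273, 139 and 176 CPM in bcat(ex3)osb mice and 282, 186 and 261 CPM in WT mice 1, 2 and 3. Mouse 2 was the lowest of each group, and the log2 fold change was -0.31 ± 0.29 (unadjusted p = 0.313, edgeR adjusted p = 0.898). Bub1, the kinase that recruits the checkpoint proteins, was at 106, 39.3 and 65.9 CPM in bcat(ex3)osb mice and between 86.7 and 96.9 CPM in WT mice. Its extremes, bcat(ex3)osb mice 1 and 2, differed by 2.70-fold.

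Cdc20, the APC/C activator that the checkpoint inhibits (chromosome 4, 118432901 to 118437343), was at 293, 304 and 222 CPM in bcat(ex3)osb mice and 240.4, 342 and 289.9 CPM in WT mice 1, 2 and 3. The ranges overlapped, with a log2 fold change of -0.092 ± 0.21 (unadjusted p = 0.679, edgeR adjusted p = 0.958). Ube2c, the ubiquitin-conjugating enzyme of the APC/C, had the widest range of the 36 genes, 2.74-fold. It was at 246, 255 and 129 CPM in bcat(ex3)osb mice and 134, 354 and 227 CPM in WT mice 1, 2 and 3. Cdca3, a regulator of mitotic entry, was at 148, 214 and 86.1 CPM in bcat(ex3)osb mice and 83.8, 197 and 129 CPM in WT mice 1, 2 and 3, with the WT mice in the same order as for Ube2c.

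The 5 kinetochore genes had a median log2 fold change of -0.29. Nuf2, a subunit of the Ndc80 complex that binds microtubules (chromosome 1, 169497934 to 169531464), was at 95.2, 51.9 and 66.9 CPM in bcat(ex3)osb mice and 88.6, 105 and 95.6 CPM in WT mice 1, 2 and 3. bcat(ex3)osb mice 2 and 3 lay below all WT mice and mouse 1 among them. The log2 fold change was -0.43 ± 0.25, with the smallest unadjusted p of the 36 genes (unadjusted p = 0.117, edgeR adjusted p = 0.829). Its complex partner Ndc80 had a log2 fold change of -0.18 ± 0.20. Cenpe, a kinesin that aligns chromosomes, averaged 103 ± 31.7 CPM in bcat(ex3)osb and 125 ± 44.8 CPM in WT animals (SD, n = 3 each). Cenpf, a large coiled-coil protein, averaged 120.1 ± 48.6 CPM in bcat(ex3)osb and 149.95 ± 66.9 CPM in WT animals. Cenpa, the centromeric histone, had a value of the other sign, 0.15 ± 0.39.

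Spindle genes gave a median log2 fold change of -0.22 over 8 genes, 7 of them negative. Tpx2, the activator of Aurora A on spindle microtubules (chromosome 2, 152847964 to 152895321), was at 198, 132 and 132 CPM in bcat(ex3)osb mice and 175, 194 and 191 CPM in WT mice 1, 2 and 3. As for Nuf2, bcat(ex3)osb mice 2 and 3 were below all WT mice, but mouse 1 was above them all, and the log2 fold change of Tpx2 was -0.28 ± 0.21 (unadjusted p = 0.234, edgeR adjusted p = 0.878). Hmmr, a receptor of hyaluronan that also binds spindle microtubules (chromosome 11, 40701388 to 40733464), was at 119, 68.4 and 63.4 CPM in bcat(ex3)osb mice and 76.0, 153 and 105 CPM in WT mice 1, 2 and 3. It had a log2 fold change of -0.41 ± 0.33 (unadjusted p = 0.252, edgeR adjusted p = 0.886), with overlap between the groups.

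Ckap2, a microtubule-stabilising protein (chromosome 8, 22168149 to 22185819), was the 1 member whose groups did not overlap. It was at 49.0, 52.6 and 43.7 CPM in bcat(ex3)osb mice and 53.3, 59.8 and 56.6 CPM in WT mice 1, 2 and 3, with a gap between the groups smaller than the spread inside either. Among all genes, 7.67% had all bcat(ex3)osb values below all WT values and 6.89% above, so 1 lower and 0 higher of 36 is no more than the background. Its log2 fold change was -0.22 ± 0.18 (unadjusted p = 0.253, edgeR adjusted p = 0.886), and with RLE or DESeq2 scaling, or with the length trend removed, the groups overlapped. With a mouse left out, separation of the groups is more common over all genes as well. Without bcat(ex3)osb mouse 1, 12 of the 36 genes lay below WT without overlap, against 13.8% of all genes tested. Without WT mouse 1, 2 of the 36 did (Ckap2 and Nuf2), against 10.9% of all genes, and without bcat(ex3)osb mouse 3, 2 of the 36 lay above WT (Aurkb and Tacc3), against 10.6%.

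Among the other spindle genes, Kif11, the motor that pushes the poles apart, was at 269, 111 and 162 CPM in bcat(ex3)osb mice and 246, 219.7 and 238 CPM in WT mice 1, 2 and 3. The bcat(ex3)osb mice thus spanned 2.41-fold around a narrow WT range. Kif2c, which depolymerises microtubules, Kif4, a chromosome-bound kinesin, and Nusap1, a microtubule bundler, had log2 fold changes of -0.022 ± 0.25, -0.083 ± 0.27 and -0.22 ± 0.27. Tacc3, which cross-links kinetochore fibres, was the single positive spindle gene, at 0.13 ± 0.19.

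The 6 cytokinesis genes had a median log2 fold change of -0.062. Kif23, the motor of the centralspindlin complex, averaged 122 ± 47.7 CPM in bcat(ex3)osb and 124 ± 13.2 CPM in WT animals (SD, n = 3 each). Racgap1, its other subunit, averaged 185 ± 31.8 CPM in bcat(ex3)osb and 198 ± 27.8 CPM in WT animals. Ect2, the exchange factor that centralspindlin activates, was at 157, 74.1 and 133 CPM in bcat(ex3)osb mice and 156, 95.6 and 157 CPM in WT mice 1, 2 and 3, so that mouse 2 was again the lowest of each group. Prc1, the bundler of the central spindle, Kif20a, a motor of the midzone, and Anln, the scaffold of the contractile ring, had log2 fold changes of -0.11 ± 0.22, 0.020 ± 0.20 and -0.012 ± 0.26. Kif20a had the narrowest range of all 36 genes, 1.36-fold over the 6 libraries.

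Top2a and Mki67, the chromosome-bound members, are both common labels of dividing cells. Top2a, the topoisomerase that untangles sister chromatids (chromosome 11, 98992947 to 99024199), was at 649, 297 and 369.8 CPM in bcat(ex3)osb mice and 549, 693 and 593 CPM in WT mice 1, 2 and 3. bcat(ex3)osb mice 2 and 3 were below all WT mice and mouse 1 inside their range, with a log2 fold change of -0.48 ± 0.30 (unadjusted p = 0.146, edgeR adjusted p = 0.853). Mki67, which coats mitotic chromosomes (chromosome 7, 135689784 to 135716450), was at 471, 219 and 266 CPM in bcat(ex3)osb mice and 249, 511 and 387 CPM in WT mice 1, 2 and 3. Its groups overlapped widely, with a log2 fold change of -0.26 ± 0.36 (unadjusted p = 0.480, edgeR adjusted p = 0.920).

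Levels between genes need scaling by length, for which the deposited FPKM was used. FPKM does not remove the trend with length that differed between libraries, given below. The part of length in the order of the genes was not tested. Ube2c, the shortest member, was the highest, at 217 ± 65.5 FPKM in bcat(ex3)osb and 261 ± 114 FPKM in WT mice (SD, n = 3 each). Cdc20 was at 148 ± 18.4 FPKM in bcat(ex3)osb and 167 ± 24.5 FPKM in WT mice, and Ccnb2 at 148 ± 21.0 FPKM in bcat(ex3)osb and 141 ± 25.8 FPKM in WT mice. The ranges of Ube2c and Cdc20, and those of Cdc20 and Ccnb2, overlapped in WT mice. Cenpf, the longest member, was the lowest in both groups, at 10.6 ± 4.57 FPKM in bcat(ex3)osb and 13.7 ± 5.77 FPKM in WT mice. Next came Cenpe at 12.9 ± 4.39 FPKM in bcat(ex3)osb and 16.4 ± 5.40 FPKM in WT mice, and Anln at 14.2 ± 4.71 FPKM in bcat(ex3)osb and 15.1 ± 2.78 FPKM in WT mice, whose order differed between the groups. Top2a was at 82.5 ± 37.2 FPKM in bcat(ex3)osb and 120.2 ± 10.98 FPKM in WT mice.

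The order of the libraries differed between short and long genes. The 36 genes had lengths between 931 bases (Ube2c) and 11122 bases (Cenpf), with a median of 2985.5. In bcat(ex3)osb mouse 2, relative to the mean of the 6 libraries, the 18 shorter genes had a median of 0.089 log2 units and the 18 longer genes one of -0.51. In bcat(ex3)osb mice 1 and 3 the pairs were 0.16 and 0.37, and -0.31 and -0.25, for shorter and longer genes. In WT mice 1, 2 and 3 they were -0.23 and 0.055, 0.31 and 0.13, and 0.084 and 0.21. Among the 18 shorter genes, Cdk1, Cenpa and Cdca3 were highest of all libraries in bcat(ex3)osb mouse 2, but Nuf2 and Kif2c were lowest there. Ube2c, the shortest, and Cdc20 were highest in WT mouse 2. Among the 18 longer genes, Top2a, Mki67, Kif11 and Bub1 were lowest in bcat(ex3)osb mouse 2, while Cenpf, the longest, was lowest in WT mouse 1.

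A trend with length was also present over all genes tested. Split at the same length, their medians in bcat(ex3)osb mouse 2 were 0.23 for shorter and -0.31 for longer genes, and in WT mouse 2 they were 0.15 and -0.18. Across the 36 genes, the relative level in bcat(ex3)osb mouse 2 had a Pearson correlation of -0.70 with log2 length, against -0.34 across all genes. These are correlations across genes within 1 library, which are not independent replicates. Once a smooth trend of level on length over all genes was removed from each library, the medians of shorter and longer members in bcat(ex3)osb mouse 2 were 0.028 and -0.19. The median over the 36 genes then stood at 0.20, -0.15 and -0.39 against the WT mean in bcat(ex3)osb mice 1, 2 and 3, and at -0.21, 0.17 and 0.047 in WT mice. The genotype difference had a median of -0.11 with the trend removed, and 0 of 36 genes passed. In the main fit, where the trend was not removed, 8 of the 18 shorter and 1 of the 18 longer genes had a positive fold change. The median fold changes in that fit were -0.025 for shorter and -0.21 for longer genes.

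**Figure D4:**
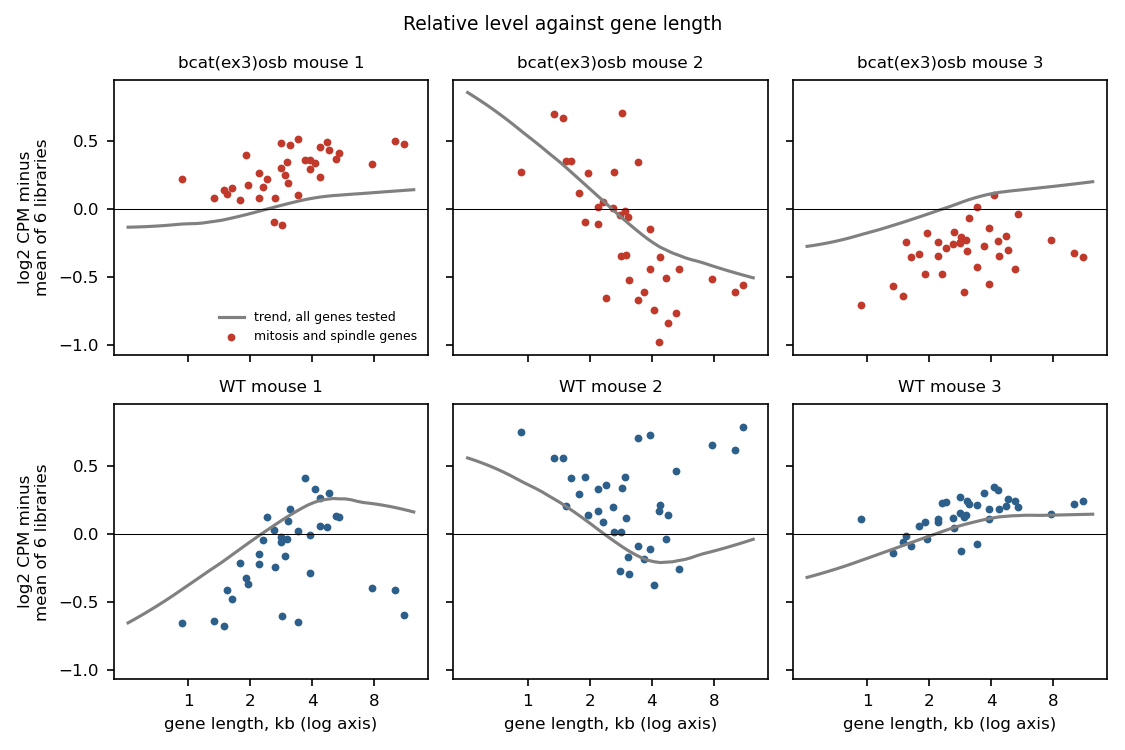
Level of each mitosis and spindle gene relative to the mean of the 6 libraries (log2 CPM, vertical axis) against gene length in kb on a log axis, with a panel per library. Grey lines are the smooth trend over all tested genes. In bcat(ex3)osb mouse 2 both fall with length, and in bcat(ex3)osb mouse 3 most of the genes lie below the trend.

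Other genes of the mitotic machinery, in lists that exclude the 36, gave no call either. By edgeR 0 genes of any of the 9 cell cycle lists passed over all genes, and DESeq2 called 0. Kinetochore and centromere genes had a median log2 fold change of -0.011 over 30 genes, 15 positive and 15 negative. Other spindle and cytokinesis genes had -0.049 over 37, and condensin and cohesin genes, which fold and hold sister chromatids, -0.16 over 23 with 18 negative. Regulators of mitotic entry had 0.12 over 16, APC/C subunits and regulators -0.052 over 17, and the other spindle checkpoint genes -0.17 over 9. The kinetochore and centromere list had medians, relative to the WT mean, of 0.017, 0.10 and -0.28 log2 units in bcat(ex3)osb mice 1, 2 and 3 and of -0.30, 0.32 and -0.032 in WT mice 1, 2 and 3. WT mouse 2 was its highest library and WT mouse 1 its lowest, so both extremes were WT.

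Over the 9 lists, 4 of 185 genes tested had an unadjusted p under 0.05 (2.16%), below the 6.56% of all genes, so these 4 are named as values only. Cdc16, an APC/C subunit, was at 121, 92.2 and 115 CPM in bcat(ex3)osb mice and 174, 161 and 170.4 CPM in WT mice 1, 2 and 3, without overlap. It had a log2 fold change of -0.63 ± 0.18 (unadjusted p = 0.00870, edgeR adjusted p = 0.509). Anapc16, a small APC/C subunit, had 0.77 ± 0.32 (unadjusted p = 0.0421), and Cdc14b, a phosphatase, -1.18 ± 0.44 (unadjusted p = 0.0272) at 2.65 ± 0.66 CPM in bcat(ex3)osb and 6.01 ± 1.78 CPM in WT animals (SD, n = 3 each). Tob1, an antiproliferative gene of the exit list, had -0.83 ± 0.27 (unadjusted p = 0.0154). The adjusted p of these 4 genes was 0.509 or more by edgeR. Fzr1, the APC/C activator of late mitosis and G1, had 0.28 ± 0.20.

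Regulators of G2/M transcription had a median log2 fold change of 0.044 over 18 genes. Mybl2, which encodes B-Myb, was at 83.7, 105 and 87.7 CPM in bcat(ex3)osb mice and 72.1, 53.3 and 76.2 CPM in WT mice 1, 2 and 3, without overlap, with a log2 fold change of 0.45 ± 0.21 (unadjusted p = 0.0607, edgeR adjusted p = 0.774). E2f8, a repressor of E2F targets, and Rbl1, the p107 pocket protein, had 0.34 ± 0.18 and -0.31 ± 0.19. S phase genes had a median of 0.015 over 24 genes, 12 positive and 12 negative. For cell cycle exit the median was -0.36 across 11 genes, 9 of them negative and 2 positive. The values ran from -0.83 to 0.90, so the largest in size was positive. Btg2 was at -0.44 ± 0.21 and Ccng2 at -0.46 ± 0.25. Among the genes of the S phase list, Pola1, Cdt1 and E2f1 had log2 fold changes of -0.56 ± 0.32, 0.28 ± 0.18 and 0.23 ± 0.18.

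The remaining genes with the smallest p-values of their lists had unadjusted p-values above 0.05. Over the 9 lists, 7 of 185 genes lay above WT without overlap (3.78%) and 10 below (5.41%), against 6.89% and 7.67% of all genes. Those above included Cdc25a, Trip13, Mybl2, E2f8, Cdt1 and E2f1, and those below were Cdc16, Cdc14b, Zw10, Cenpi, Cenpc1, Kif3a, Rbl1, Pola1, Tob1 and Btg2. In the entry list Cdc25b and Cdc25a, phosphatases that activate Cdk1, had -0.47 ± 0.21 and 0.23 ± 0.16. In the checkpoint list Trip13, Zw10 and Kntc1 had 0.37 ± 0.17, -0.55 ± 0.32 and -0.60 ± 0.42. Cenpi, Cenpc1 and Spc25 of the kinetochore list had -0.39 ± 0.22, -0.28 ± 0.19 and -0.29 ± 0.23. Kif3a, Ckap5 and Cep55 had -0.44 ± 0.24, -0.43 ± 0.26 and -0.39 ± 0.25. Esco2, Smc1a and Rad21 of the cohesin machinery had -0.40 ± 0.25, -0.34 ± 0.23 and -0.27 ± 0.19.

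**Figure D5:**
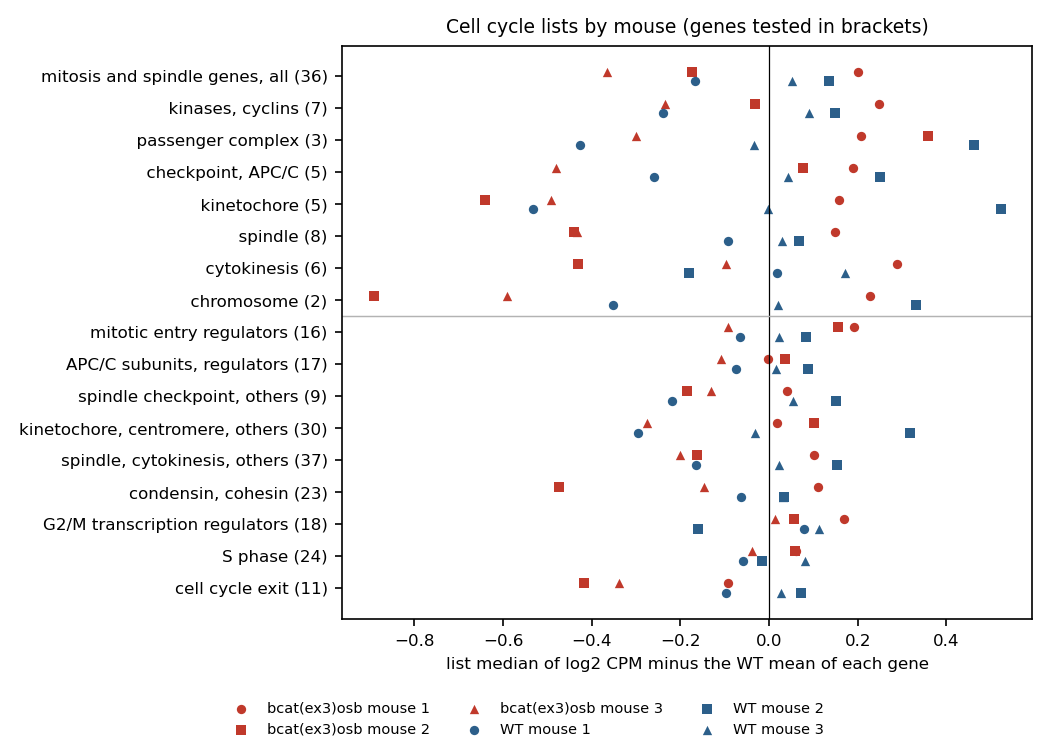
Median log2 CPM of each list relative to the WT mean of its genes, 1 point per mouse, for the mitosis and spindle genes by role (above the line) and the other cell cycle lists (below), with the number of genes tested in brackets. bcat(ex3)osb mice (red) and WT mice (blue) interleave in most lists, and the S phase list is the narrowest.

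By promoter content, the 23 genes with both CHR and CCAAT matches had a median log2 fold change of -0.10, with 5 positive, and the 9 with a promoter entry but without both had -0.15, with 1 positive. Over all tested genes with a promoter, the 647 with both elements had a median of -0.017 and the 8761 others 0.0053. In the other lists both elements were present in 8 of 23 kinetochore and centromere genes (34.8%), 11 of 31 other spindle and cytokinesis genes (35.5%), 3 of 19 S phase genes (15.8%) and 0 of 9 cell cycle exit genes.

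Exons of 10 of the 36 genes overlap an exon of a gene on the opposite strand in GENCODE M21 (GRCm38): Ccna2, Plk1, Cdca8, Cdc20, Ube2c, Kif4, Nusap1, Tacc3, Kif20a and Prc1. The strand setting of the counting is not given in the sources used here, so their counts may include reads of those neighbours. Top2a overlaps a small RNA gene on its own strand. Ccnb1, Ccnb2 and Kif4 each have an annotated pseudogene of the same name, and how shared reads were counted is also not given.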

How the data were processed

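RNA from LSK cells of 6 mice was sequenced. The labels' protocols name a stranded total RNA kit (TruSeq). The submitters' processing notes list STAR 2.5.2b, featureCounts 1.5.0-p3, bcl2fastq 2.17 and build mm10. The authors deposited raw counts per gene and, per the file headers, gene length and FPKM for each library; each FPKM equalled the count per length and library total within 0.005.

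Counts were filtered by filterByExpr with the genotype as group (count of at least 10, total of at least 15), scaled by TMM and tested with edgeR 4.0.16 in R 4.3.3 (quasi-likelihood F test, two-sided, genotype as the only term), with Benjamini-Hochberg adjustment over 12653 genes and a threshold of 0.05. SE came from the F statistic, and 95% intervals used its degrees of freedom. The smooth length trend was a loess fit of log2 CPM (prior count 1, span 0.5) on log2 length per library. Alternatives used DESeq2 1.42.0, limma 3.58.1, log2(FPKM + 1) and log2(FPKM + 0.1), other scalings and filters, a block by mouse number, sex, and leaving out each mouse. The procedure was tested on simulated data.

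The 36 members and the other lists were chosen with earlier results of these data known. Full statistics were given for the 5 members with the smallest unadjusted p and for Mki67, Top2a, Cdk1, Ccnb1, Plk1, Aurkb, Bub1b and Cdc20, and from each other cell cycle list the 3 genes with the smallest unadjusted p were named. Genes named as examples beyond this rule were chosen after their values were seen. P-values set the genotype difference against the spread between mice, and counts carry PCR reads without molecular identifiers.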

Additional observations from a re-analysis of the deposited data

How the results depend on the processing

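In every one of the 13 settings and 6 omissions of a mouse, 0 of the 36 genes passed, with adjusted p-values of 0.380 or more. The median log2 fold change of the 36 genes stayed within 1 SD of the per-library medians (0.235) of its value of -0.10, except with sex as a covariate (-0.38) and among females (-0.39), where it rests on 1 bcat(ex3)osb mouse. That SD is larger than the median itself, so the sign could change within it. Without bcat(ex3)osb mouse 3 the median was 0.011, with 20 genes positive and 16 negative. The count of genes called was 0 by edgeR and 169 by DESeq2 (101 higher, 68 lower), 5 with the mouse number as a replicate block (Elane, Hp, Klf9, Ms4a3 and Mt1, all higher) and 1 with the length trend removed (Hp, higher); leaving out a mouse gave 0 to 14, the most without bcat(ex3)osb mouse 1. No member was among them. Members below WT without overlap numbered 1, and 0 with RLE scaling, DESeq2 or the length trend removed, and 20 in the female libraries (against 23.1% of all genes). With a mouse left out they numbered 1 to 12, where the share over all genes was 9.53% to 17.6%. The 12 came without bcat(ex3)osb mouse 1, where that share was 13.8%, and the 17.6% came without WT mouse 2, with 1 member below. Members above numbered 0, and 0 to 2 when a mouse was left out (8.94% to 16.6% of all genes). The 2 came without bcat(ex3)osb mouse 3, against 10.6% of all genes. Same-numbered mice had correlations of deviations of 0.11, 0.34 and 0.057. Among the WT mice, bcat(ex3)osb mouse 2 correlated best with WT mouse 2. bcat(ex3)osb mice 1 and 3 correlated best with a WT mouse of another number (0.13 and 0.28). Whether the mouse numbers mark libraries handled together was not tested. The block moved Birc5 to 0.012.

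Signs changed, also that of Cdk1, which had the highest value of the 36 genes. Given first for the fit with sex and then for the females alone, the log2 fold changes were -0.13 and -0.14 for Cdk1, -0.25 and -0.26 for Ccna2, -0.19 and -0.20 for Ccnb2, -0.098 and -0.11 for Aurkb, -0.35 and -0.36 for Cdca8, -0.66 and -0.68 for Cdca3, -0.58 and -0.59 for Cenpa, -0.11 and -0.12 for Tacc3, and -0.14 and -0.15 for Kif20a. Ccna2 and Kif20a were at -0.023 and -0.020 with upper-quartile scaling, -0.066 and -0.056 without composition scaling, -0.065 and -0.070 on log2(FPKM + 1), and -0.065 and -0.072 on log2(FPKM + 0.1). Birc5 was at 0.020 by limma-voom. Anln was at 0.0014 with RLE scaling and by DESeq2 and at 0.069 with the length trend removed. Leaving out a mouse changed the sign of 24 genes, whose ranges were -0.081 to 0.53 for Cdk1, -0.15 to 0.16 for Ccna2, -0.28 to 0.018 for Ccnb1, -0.0055 to 0.30 for Ccnb2, -0.18 to 0.12 for Plk1, -0.36 to 0.094 for Aurka, -0.33 to 0.18 for Ttk, -0.32 to 0.38 for Birc5, -0.10 to 0.35 for Cdca8, -0.21 to 0.041 for Cdc20, -0.47 to 0.22 for Ube2c, -0.22 to 0.49 for Cdca3, -0.21 to 0.53 for Cenpa, -0.56 to 0.013 for Cenpe, -0.70 to 0.046 for Cenpf, -0.34 to 0.13 for Kif2c, -0.42 to 0.11 for Kif4, -0.34 to 0.23 for Kif23, -0.14 to 0.096 for Kif20a, -0.35 to 0.018 for Prc1, -0.26 to 0.17 for Anln, -0.40 to 0.091 for Ect2, -0.24 to 0.012 for Racgap1 and -0.66 to 0.0010 for Mki67. The cause of these changes was not tested.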
